A study of Mus musculus with 4 samples.

Results

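10 of the 21878 genes in the count table were followed: the receptor gene Met, the caveolin genes Cav1 and Cav2, and the growth factor genes Hgf, Pdgfa, Pdgfb, Hbegf, Areg, Igf1 and Tgfb1. Met and Cav1 were chosen by their counts, which were higher in the anti-Act1 libraries, Cav2 came with them as the gene next to Cav1, and the 7 growth factor genes were added for what they encode. The counts that chose Met and Cav1 are the ones described below, so Met, Cav1 and Cav2 are given as values without a test, and only the growth factors were tested.

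The libraries were made from bone-marrow-derived macrophages of C57BL/6 mice, which carried the anti-Act1 genotype in 2 libraries and were wildtype (WT) in the other 2. Anti-Act1 mice carry a knockdown of Act1, the IL-17 receptor adaptor encoded by Traf3ip2, described as restricted to macrophages; the promoter of the transgene is not given in the sources used here. The labels give mice of 8 weeks and 48 h of coculture with MC38 cells, a mouse colon cancer line, for both groups, while the study's text gives a wider range of ages and, for the sequencing, a shorter coculture. The study's methods place the tumor cells in an insert above macrophages grown with M-CSF. No library without tumor cells or from other macrophages was analysed here, and the comparison of anti-Act1 with WT asks how the knockdown alters macrophage transcripts in the presence of tumor cells.

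MET is the receptor tyrosine kinase for hepatocyte growth factor (HGF), and is best known from epithelial and carcinoma cells, where it drives growth, motility and scattering. HGF is secreted by stromal cells and macrophages as an inactive precursor that must be cut by serine proteases. Caveolin-1 and caveolin-2 are coat proteins of caveolae, small pits of the plasma membrane that hold receptors and lipids. PDGF, HB-EGF, amphiregulin, IGF-1 and TGF-β1 are factors by which macrophages act on fibroblasts, vessels and epithelium in wounds and tumors.

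Cav2, Cav1 and Met follow each other on chromosome 6, and the sequence before their starts is printed with that of Igf1. These are the members with the largest differences or with a match to the pattern searched for AP-1. Windows of 250 bases before to 50 after the start, placed by RefSeq (GRCm38.p6), were used for 8 of the 10 genes. Pdgfb and Hbegf were not searched, and the motif counts below leave them out. The 250 bases before the start are shown 5′ to 3′, all on the plus strand. Capitals mark matches to TGANTCA, the loose pattern searched for AP-1, in which N is any base.
Cav2 (chr6:17280935-17281184): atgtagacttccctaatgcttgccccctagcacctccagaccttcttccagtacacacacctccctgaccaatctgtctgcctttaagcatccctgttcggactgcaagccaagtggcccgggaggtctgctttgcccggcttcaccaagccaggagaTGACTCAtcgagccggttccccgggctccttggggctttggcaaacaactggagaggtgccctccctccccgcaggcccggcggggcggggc
Cav1 (chr6:17306085-17306334): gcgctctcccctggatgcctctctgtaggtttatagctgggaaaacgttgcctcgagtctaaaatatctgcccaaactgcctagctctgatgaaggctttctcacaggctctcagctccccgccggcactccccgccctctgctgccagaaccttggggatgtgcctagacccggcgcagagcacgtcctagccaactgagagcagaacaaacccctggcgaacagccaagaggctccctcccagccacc
Cav1 (chr6:17307390-17307639): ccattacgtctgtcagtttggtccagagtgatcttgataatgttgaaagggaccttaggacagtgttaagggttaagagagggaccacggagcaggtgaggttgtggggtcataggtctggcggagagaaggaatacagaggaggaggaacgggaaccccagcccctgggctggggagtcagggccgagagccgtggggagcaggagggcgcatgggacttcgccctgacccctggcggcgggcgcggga
Met (chr6:17463707-17463956): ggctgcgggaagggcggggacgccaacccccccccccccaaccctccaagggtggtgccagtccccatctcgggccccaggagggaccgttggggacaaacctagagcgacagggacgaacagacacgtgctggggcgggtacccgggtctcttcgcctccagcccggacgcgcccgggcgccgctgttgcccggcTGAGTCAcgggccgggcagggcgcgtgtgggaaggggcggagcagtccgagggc
Igf1 (chr10:87860861-87861110): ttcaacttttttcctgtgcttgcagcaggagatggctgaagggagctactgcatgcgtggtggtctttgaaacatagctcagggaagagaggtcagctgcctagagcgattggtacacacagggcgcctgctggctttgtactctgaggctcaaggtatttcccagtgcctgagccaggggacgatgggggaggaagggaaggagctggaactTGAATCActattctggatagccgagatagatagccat
The match began at position -54 from the start in Met, where -1 is the last base before the start, at -92 in Cav2 and at -37 in Igf1. The base at N was G in Met, C in Cav2 and A in Igf1. Searched on both strands, the motif was in the windows of these 3 of the 8 genes, which had 11 windows together. Counted per window and not per gene, it was in 7.81% of all 32851 windows of the same length. No other motif searched overlapped it in the windows of these 3 genes. Both windows of Cav1 lacked these letters. The motif TTCNNNGAA, bound by STAT factors, was in none of the windows used for these 8 genes and in 8.30% of all windows. Of these 8 genes, only Areg had the cAMP response element core TGACGT, with overlapping matches on both strands, against 7.51% of all windows. The motifs were chosen after the sequences were seen, and a match of letters is no evidence of binding.

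Total counts were 64199075 and 75062945 in the WT libraries and 61926229 and 55435063 in the anti-Act1 libraries. The targeted gene Traf3ip2 had 6.98 and 7.54 CPM (counts relative to depth, with TMM factors) in WT and 9.63 and 7.84 CPM in anti-Act1, with a log2 fold change of 0.27 (SE 0.12, adjusted p = 0.117, edgeR). Both libraries labelled anti-Act1 were thus above both WT libraries for the knockdown target, an order found for 28.4% of all genes tested. Traf3ip2 was not called, and each direction below rests on the labels. The summed level of 4 Y-linked genes was 228 and 246 CPM in WT against 0.0162 and 0 CPM in anti-Act1, so that the genotype and this Y-linked difference cannot be told apart.

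Met had 8.50 and 8.76 CPM in the WT libraries and 21.9 and 21.5 CPM in the anti-Act1 libraries. Both anti-Act1 libraries were above both WT libraries, an order also found for 28.4% of the 12494 genes tested, with groups apart in either direction for 57.1%. This contrast chose Met, and nothing is read from the order. The mean was 8.63 ± 0.19 CPM in WT and 21.7 ± 0.30 CPM in anti-Act1 (SD, n = 2 each), a 2.51-fold difference with a log2 fold change of 1.33 (SE 0.09). In bulk RNA, a change in the number of cells that carry a transcript and a change in its level per cell cannot be told apart. Per gene length Met stayed low, at 1.29 and 1.33 FPKM in WT and 3.29 and 3.18 FPKM in anti-Act1.

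Markers of epithelial cells, in which Met is usually found, were near 0 in every library. The summed level of the 8 epithelial markers was 0.464 and 0.343 CPM in WT and 0.389 and 0.128 CPM in anti-Act1. Krt8, Krt18, Cldn3 and Cldn4 had 0 counts in all libraries, Epcam had at most 2, and the only marker that passed the filter on low counts, the E-cadherin gene Cdh1, had 29, 19, 16 and 4 counts with an adjusted p of 0.267 (edgeR). The part of epithelial or tumor cell transcripts in the Met values was not tested. The 8 macrophage markers summed to 24817 to 26390 CPM across the libraries. Of these 8, Cd14 rose by 0.16 on the log2 scale, while Itgam fell by 0.31 and the mannose receptor gene Mrc1 fell by 0.63, and their part in the Met values was not tested.

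Cav1 had 20.2 and 21.4 CPM in WT and 45.4 and 45.1 CPM in anti-Act1. Both anti-Act1 libraries were the higher ones, as the choice of Cav1 required, with means of 20.8 ± 0.84 and 45.2 ± 0.16 CPM (SD, n = 2 each). This was a 2.17-fold difference, or 1.12 on the log2 scale (SE 0.07).

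Cav2, whose product assembles with caveolin-1, had 109 and 120 CPM in WT and 154 and 145 CPM in anti-Act1. It was again higher in both anti-Act1 libraries, but by less, with a 1.31-fold difference and a log2 fold change of 0.38 (SE 0.06). Per gene length Cav2 was the more abundant caveolin in every library, and the ratio of Cav2 to Cav1 FPKM was 6.63 and 6.93 in WT and 4.19 and 3.97 in anti-Act1. This ratio contains the Cav1 values that chose the gene, and is given as a description.

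Caveolins are abundant in endothelial cells, adipocytes, smooth muscle and fibroblasts. The 4 adipocyte markers Adipoq, Plin1, Cidec and Lep had 0 counts in all libraries, and the 6 fibroblast markers summed to 0.453 to 0.824 CPM, with Lum at 0. The 7 endothelial markers summed to 95.8 and 86.3 CPM in WT and 92.7 and 91.9 CPM in anti-Act1, with Emcn at 0. Of the 4 endothelial markers tested, 1 (25%) passed an adjusted p of 0.05, near the 20.7% of all genes tested. This was Egfl7, chosen after its value was seen, which rose from 0.598 to 1.26 CPM in anti-Act1 (log2 fold change 1.09, SE 0.35, adjusted p = 0.0207, edgeR). The more abundant Pecam1 and Vwf did not pass, with log2 fold changes of -0.10 and 0.07 (adjusted p = 0.365 and 0.459, edgeR). Cdh5 did not pass either (-0.25, adjusted p = 0.734, edgeR). The 5 smooth muscle markers summed to 3.39 to 4.02 CPM. The part of endothelial transcripts in the caveolin values was not tested.

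**Figure D1:**
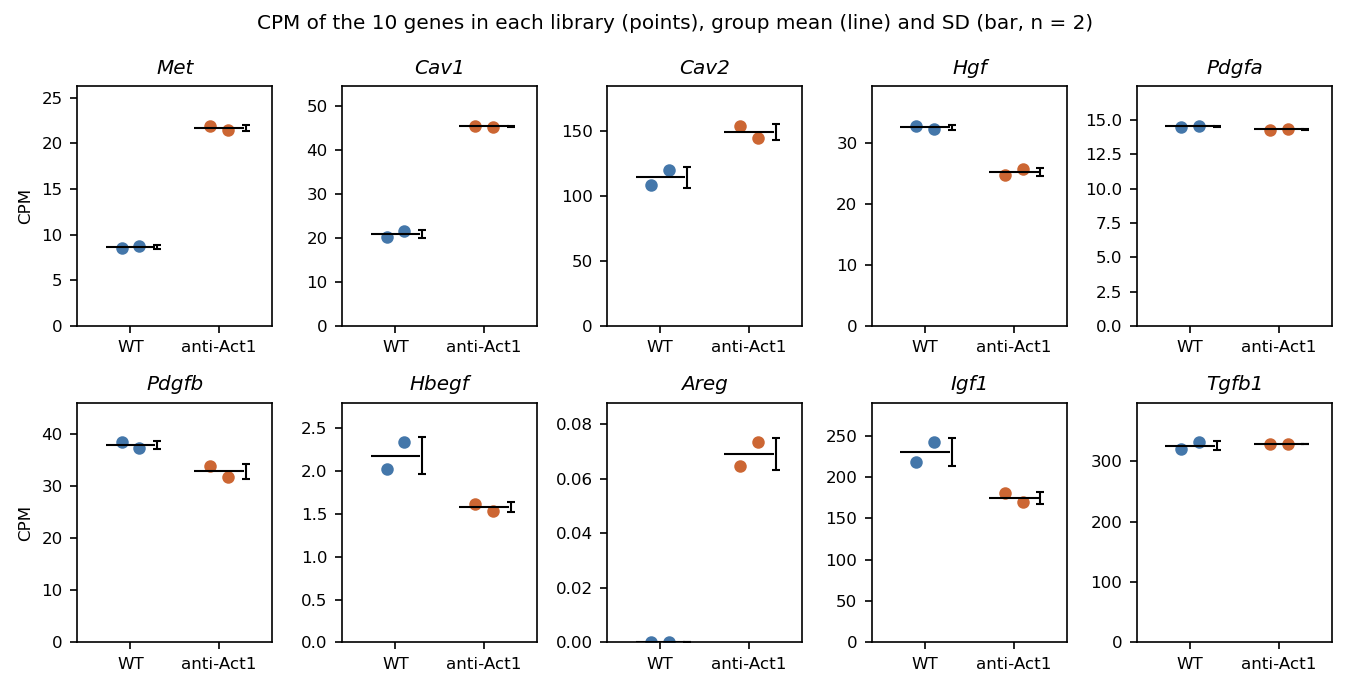
CPM of the 10 genes (vertical axis from 0, its own scale in each panel) in the 2 WT and the 2 anti-Act1 libraries. Points are libraries, lines are group means and bars are SD. Met, Cav1 and Cav2 were higher in both anti-Act1 libraries, Hgf, Pdgfb, Hbegf and Igf1 were lower in both, and Areg rests on 4 counts in each anti-Act1 library.

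The genes around the locus did not share one direction. Of the 5 genes with a line in the count table on each side of Cav2, Cav1 and Met in RefSeq order, 5 of 10 had 0 counts in all libraries (Ppp1r3a, Foxp2, Wnt2, Asz1 and Cftr) and 5 were tested. Among all 12494 genes tested, 20.7% passed an adjusted p of 0.05, with 10.9% of all tested higher and 9.76% lower in anti-Act1. Tes, next to Cav2 and encoding the focal adhesion protein testin, had 35.2 and 33.5 CPM in WT and 55.4 and 55.4 CPM in anti-Act1. Its groups did not overlap, and Tes rose by a log2 fold change of 0.69 (SE 0.06, adjusted p = 2.28e-12, edgeR). Tfec, a transcription factor gene of the macrophage lineage on the far side of Tes, fell from 34.5 to 28.8 CPM (log2 fold change -0.26, adjusted p = 0.00375, edgeR). This call was lost without anti-Act1 replicate 2, with an adjusted p of 0.106 in edgeR.

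On the other side of the locus, Capza2, which encodes an actin capping protein and lies next to Met, had 347 and 354 CPM in WT and 347 and 335 CPM in anti-Act1 (log2 fold change -0.04, adjusted p = 0.639, edgeR). St7 and Mdfic, with log2 fold changes of 0.16 and -0.02, did not pass the test either (adjusted p = 0.417 and 0.823, edgeR). Tes, Cav2, Cav1 and Met were thus 4 neighbours with higher values in anti-Act1, of which Met and Cav1 had been picked for it and Tes had not. RefSeq places the non-coding gene Gm52893 across Met, and without strand information its reads cannot be told apart from those of Met.

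**Figure D2:**
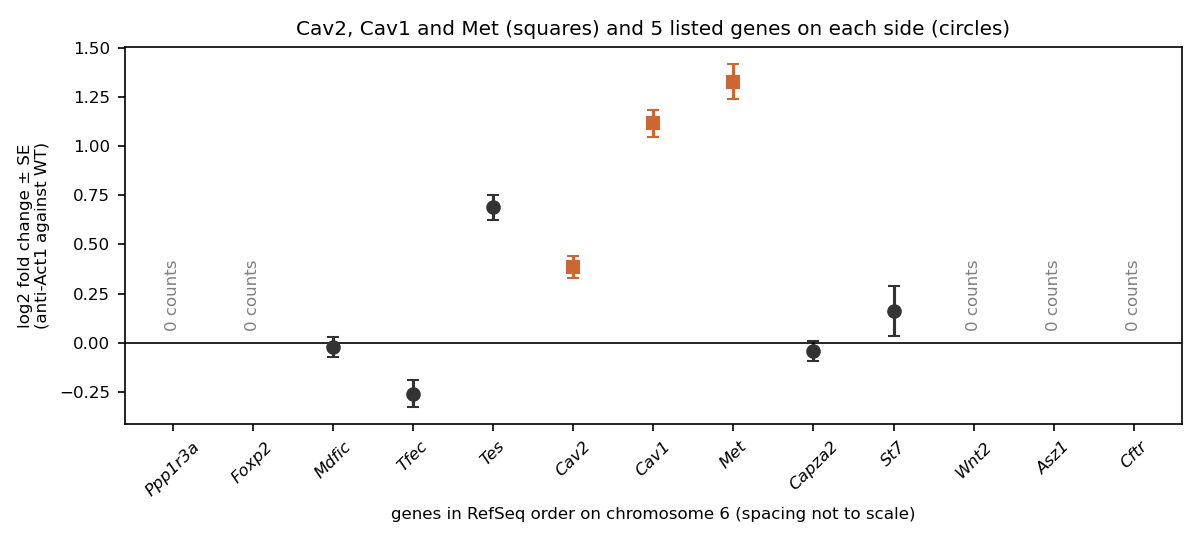
Log2 fold change of anti-Act1 against WT (vertical axis, with SE as bars) for Cav2, Cav1 and Met (squares) and the 5 listed genes on each side (circles), in RefSeq order on chromosome 6 with even spacing. Values of 0.69, 0.38, 1.12 and 1.33 stand side by side from Tes to Met, and Capza2 beside them is at -0.04.

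Genes whose profile over the 4 libraries was close to that of Met were found by the Euclidean distance of centred log2(CPM + 0.1) among 10891 genes with a mean of at least 1 CPM. Among the nearest were Rgcc, a regulator of the cell cycle (distance 0.0782), the glutathione transferase gene Gstm2 (0.0884), Nos2, the inducible nitric oxide synthase of inflammatory macrophages (0.108), and Il1a, the cytokine IL-1α (0.115). For Cav1 they were the serpin gene Serpini1 (0.0539), the lipoprotein receptor gene Vldlr (0.0579), the adhesion molecule gene Clmp (0.0983), the small MAF transcription factor gene Maff (0.105) and Arfgef3 (0.109). With 4 libraries in 2 groups, a small distance says that a gene has a similar difference between the groups and a similar spread, and Nos2 (69.4 to 176 CPM) was far more abundant than Met.

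HGF and the other secreted factors did not share the direction of Met and the caveolins. Of the 7 growth factor genes, 6 passed the filter on low counts, and 3 of these 6 (Hgf, Igf1 and Pdgfb) were lower in anti-Act1 at an adjusted p under 0.05, where 9.76% of all genes tested were. In edgeR 0 of the 6 were higher, also at an unadjusted p under 0.05, and DESeq2 and limma likewise called 0 higher. The other 3 (Pdgfa, Hbegf and Tgfb1) did not pass. In 5 of the 6 both anti-Act1 libraries were below both WT libraries, which held for 28.7% of all genes tested. The median log2 fold change was -0.29 over the 6 and -0.0046 over all genes tested. For 1 gene in 2 libraries against 2, the smallest p that exact permutation allows is 0.333.

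Hgf, the ligand of MET, had 32.9 and 32.4 CPM in WT and 24.8 and 25.8 CPM in anti-Act1. Both anti-Act1 libraries were below both WT libraries, and Hgf fell by 0.37 on the log2 scale (SE 0.07, adjusted p = 5.93e-05, edgeR). The ratio of Hgf to Met FPKM, which contains the Met values that chose that gene and is given as a description, was 9.68 and 9.25 in WT and 2.84 and 3.01 in anti-Act1. Hgf remained the more abundant of the pair per gene length in all 4 libraries.

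Igf1, the insulin-like growth factor that macrophages supply in repairing tissue, had 218 and 242 CPM in WT and 180 and 170 CPM in anti-Act1. The WT libraries lay apart from each other by more than the anti-Act1 libraries did, yet the groups did not overlap. Igf1 fell by 0.39 on the log2 scale (SE 0.05, adjusted p = 1.22e-07, edgeR). The non-coding genes Igf1os and Gm31113 lie across Igf1 and Hgf in RefSeq, so that their reads cannot be told apart from those of these genes.

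The PDGF chains A and B pair to form ligands for fibroblasts and pericytes. Their genes were each tested between the groups, and a difference between the fold changes of Pdgfb and Pdgfa was not tested. Pdgfb had 38.4 and 37.4 CPM in WT and 33.8 and 31.8 CPM in anti-Act1, and fell by 0.21 on the log2 scale (SE 0.07, adjusted p = 0.0196, edgeR). The groups of Pdgfb did not overlap, but its call was lost with DESeq2 (adjusted p = 0.0627), without WT replicate 1 (0.0741, edgeR) and without anti-Act1 replicate 2 (0.264, edgeR, log2 fold change -0.16). Pdgfa had 14.5 and 14.6 CPM in WT and 14.3 and 14.4 CPM in anti-Act1. The log2 fold change of Pdgfa, -0.02 (SE 0.09, adjusted p = 0.911, edgeR), had a 95% interval from -0.19 to 0.15. Per gene length both chains were at similar levels, with a Pdgfb to Pdgfa ratio of 1.00 and 0.969 in WT and 0.893 and 0.838 in anti-Act1.

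The EGF receptor ligands were scarce. Hbegf, which encodes a membrane-bound ligand released by shedding, had 2.03 and 2.33 CPM in WT and 1.62 and 1.54 CPM in anti-Act1. Both anti-Act1 libraries were lower, but the log2 fold change of -0.47 (SE 0.23) did not pass the test over all genes (adjusted p = 0.151, edgeR; 95% interval -0.91 to -0.02). Areg, which encodes amphiregulin, had 0 counts in both WT libraries and 4 in each anti-Act1 library. A count of 0 allows up to 3 counts, or 0.0430 CPM on average in the WT libraries. The anti-Act1 mean of 0.0690 CPM was 1.61 times this limit. Counting error of the 4 counts is left out of this ratio, so it is no lower bound, and Areg was not tested. Low counts in this table were mostly even, 67.2% of 9861 values from 1 to 20, and if both reads of a pair were counted Areg rests on 2 fragments in each library, which is under that limit.

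Tgfb1, which encodes the TGF-β that macrophages secrete in latent form, was the most abundant member per gene length. It had 321 and 331 CPM in WT and 329 and 329 CPM in anti-Act1. The groups overlapped, and the log2 fold change was 0.01 (SE 0.05, adjusted p = 0.893, edgeR) with a 95% interval from -0.09 to 0.11. Tgfb1 exceeded Igf1 in FPKM by 4.73 and 4.41 times in WT and by 5.88 and 6.25 times in anti-Act1.

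The order of levels per gene length in WT was Tgfb1 (151 ± 3.9 FPKM, SD, n = 2), Cav2 (59.7 ± 4.4), Igf1 (33.1 ± 2.5), Hgf (12.4 ± 0.090), Cav1 (8.79 ± 0.38), Pdgfa (8.34 ± 0.056), Pdgfb (8.21 ± 0.13), Met (1.31 ± 0.033) and Hbegf (0.926 ± 0.095), with Areg listed at 0 FPKM. Pdgfa and Pdgfb overlapped in WT, and no other neighbours in this order did. In anti-Act1 the order was Tgfb1 (150 ± 1.3 FPKM), Cav2 (76.5 ± 3.9), Igf1 (24.8 ± 1.3), Cav1 (18.8 ± 0.23), Hgf (9.45 ± 0.18), Pdgfa (8.08 ± 0.053), Pdgfb (6.997 ± 0.362), Met (3.23 ± 0.073), Hbegf (0.659 ± 0.030) and Areg (0.0563 ± 0.0044). Cav1 and Hgf had changed places, and no neighbours overlapped. The change of places contains the Cav1 values that chose the gene, and is given as a description.

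**Figure D3:**
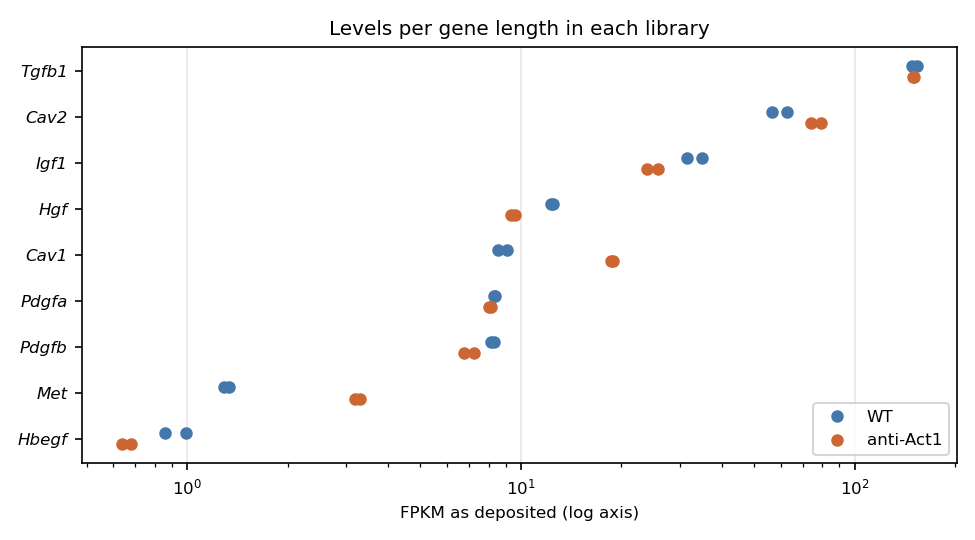
Deposited FPKM (horizontal log axis) of 9 genes in each WT and anti-Act1 library, ordered by the WT mean. Areg, at 0 FPKM in WT, is left out. Cav1 lies below Hgf in WT (8.52 and 9.07 against 12.5 and 12.3 FPKM) and above it in anti-Act1 (18.9 and 18.6 against 9.32 and 9.57 FPKM). Cav1 was chosen by its rise in these libraries, so this order is a description.

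Other genes of these pathways were read from 7 lists by function, without the members. Of 137 genes listed, 92 were tested and 34 (37.0%) passed, 16 higher and 18 lower in anti-Act1, against 20.7% of all genes tested. The median log2 fold change over the 92 was -0.0027, close to that of all genes. The lists were written with earlier results of these libraries known, and their shares were not tested against the background. Of the 34, 12 had a mean of at least 1 CPM and a log2 change of at least 0.5, and genes of this group are named below. Another 18 changed by less, between -0.39 and 0.32 on the log2 scale, and 4 had a mean under 1 CPM.

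In the list of MET receptor and signal partners, 2 of 20 genes tested rose, 3 fell and 15 did not pass, with a median of 0.0003. The 25% called is near the 20.7% of all genes tested, and the 5 calls became 3 without WT replicate 2 or without anti-Act1 replicate 2 and 1 with unfiltered limma. Spint1 and Spint2, the genes that rose, encode inhibitors of proteases that activate HGF, and the protease genes Hpn and St14 did not pass (adjusted p = 0.313 and 0.856, edgeR). Spint1, the gene of HGF activator inhibitor type 1, rose from 0.470 to 1.55 CPM (log2 fold change 1.74, adjusted p = 2.35e-04, edgeR), with log2 fold changes of 2.41 without WT replicate 1 and 1.25 without WT replicate 2. Its relative Spint2 rose from 0.553 to 1.31 CPM (1.24, adjusted p = 0.00799, edgeR). The 3 that fell were the phosphatase gene Ptpn1 (log2 fold change -0.23), the adaptor gene Sh3kbp1 (-0.20) and Cd44 (-0.24), whose product is a surface partner of MET.

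Of the 8 genes tested in the list of caveola coat and membrane raft genes, 2 rose, 2 fell and 4 did not pass, with a median of 0.02. The share called was 50%, against 20.7% of all genes tested. Cavin1, listed under its older symbol Ptrf and encoding the coat protein without which caveolae do not form, rose from 2.91 to 5.57 CPM (log2 fold change 0.94, adjusted p = 9.03e-06, edgeR). The membrane-remodelling ATPase genes Ehd1 and Ehd4 went in opposite directions: Ehd1 rose from 96.9 to 121 CPM (0.32, adjusted p = 7.91e-06, edgeR) and Ehd4 fell from 197 to 137 CPM (-0.53, adjusted p = 3.81e-11, edgeR). The raft protein gene Flot1 fell by 0.25 on the log2 scale. Cav3, Cavin2, Cavin3, Cavin4 and Ehd2 were below the filter.

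In the list of EGF family ligands, receptors and shedding, 4 of 12 genes tested rose, 2 fell and 6 did not pass, with a median of -0.03. These calls made up 50% of the genes tested in the list, against 20.7% of all genes tested. The 6 calls became 2 without WT replicate 2 or without anti-Act1 replicate 2, 3 without anti-Act1 replicate 1 and 3 with DESeq2. The neuregulin genes, which encode ligands of ERBB3 and ERBB4, were divided. Nrg4 rose from 2.67 to 4.52 CPM (log2 fold change 0.77, adjusted p = 6.22e-04, edgeR). Nrg1 fell from 2.30 to 1.49 CPM (-0.63, adjusted p = 0.0414, edgeR), a call lost with DESeq2 (adjusted p = 0.161) and on leaving out any library (0.0857 to 0.184, edgeR). Adam17, the gene of the protease that sheds HB-EGF and amphiregulin, rose from 339 to 396 CPM (0.22, adjusted p = 6.50e-04, edgeR), and Rhbdf2, which encodes a partner that carries it to the cell surface, rose by 0.18. The related protease gene Adam9 fell by 0.15 (adjusted p = 0.0266, edgeR), and Adam10, with a log2 fold change of -0.12, did not pass (adjusted p = 0.111, edgeR). Among the receptors, Egfr had 4 and 21 counts in WT and 4 in each anti-Act1 library and was below the filter, and Erbb4 had 0 counts in all libraries. Erbb2 and Erbb3 did not pass, with log2 fold changes of -0.48 and -0.19 (adjusted p = 0.708 and 0.518, edgeR).

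Among the PDGF and VEGF ligands and receptors, 2 of 7 genes tested rose, 1 fell and 4 did not pass, with a median of 0.13. The share called was 42.9%, against 20.7% of all genes tested. Pdgfc, the gene of another PDGF chain, had 14.3 and 15.4 CPM in WT and 8.47 and 8.31 CPM in anti-Act1 (log2 fold change -0.82, adjusted p = 8.05e-09, edgeR). Of the receptors for the chains, Pdgfra was nearly silent, with 2 counts in each WT library and 0 in each anti-Act1 library. Pdgfrb was low but was tested, with means of 1.18 CPM in WT and 1.72 CPM in anti-Act1 (0.54, adjusted p = 0.156, edgeR). Vegfa, the main angiogenic factor gene, rose from 1092 to 1265 CPM (0.21, adjusted p = 0.00115, edgeR).

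Among the IGF ligands, receptors and binding proteins, 1 of 9 genes tested rose, 1 fell and 7 did not pass, with a median of -0.13. The 22.2% called is near the 20.7% of all genes tested, and the 2 calls became 1 without WT replicate 2, without anti-Act1 replicate 1 and with DESeq2. The receptor genes Igf1r, Igf2r and Insr had log2 fold changes of -0.09, -0.13 and -0.06 (adjusted p = 0.497, 0.0744 and 0.559, edgeR). Igfbp4, which encodes a binding protein that holds IGF-1 back from its receptor, fell together with Igf1, from 125 to 95.5 CPM (-0.39, adjusted p = 8.60e-08, edgeR).

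In the list of TGF-β ligands, activation and signalling, 3 of 25 genes tested rose, 5 fell and 17 did not pass, with a median of -0.0013. These calls made up 32% of the genes tested in the list, against 20.7% of all genes tested. The 8 calls became 5 on leaving out anti-Act1 replicate 1, and leaving out anti-Act1 replicate 2 gave 4. Tgfbi, a known target of TGF-β that encodes a matrix protein, fell from 54.3 to 28.3 CPM (log2 fold change -0.94, adjusted p = 6.85e-16, edgeR). The signaling receptor genes Tgfbr1 and Tgfbr2 both fell slightly, by 0.20 and 0.17 on the log2 scale (adjusted p = 0.00287 and 0.0124, edgeR), while Tgfbr3, at 0.382 and 0.641 CPM, did not pass (adjusted p = 0.259, edgeR). Thbs1, which encodes an activator of latent TGF-β, fell from 6854 to 5244 CPM (-0.39, adjusted p = 3.12e-08, edgeR).

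Among the other secreted growth factors, 2 of 11 genes tested rose, 4 fell and 5 did not pass, with a median of -0.37. The share called was 54.5%, against 20.7% of all genes tested. Inhba, the gene of the activin A subunit, had 2.26 and 1.74 CPM in WT and 9.05 and 8.50 CPM in anti-Act1, the largest rise among the 12 genes past these limits of level and size (log2 fold change 2.14, adjusted p = 1.31e-15, edgeR). Csf1, the gene of M-CSF itself, rose from 16.9 to 25.1 CPM (0.57, adjusted p = 1.70e-07, edgeR). Gas6, which encodes the ligand of the TAM receptors that clear dying cells, fell from 222 to 147 CPM (-0.60, adjusted p = 5.18e-13, edgeR), and Bmp2 fell from 9.55 to 5.86 CPM (-0.71, adjusted p = 1.32e-05, edgeR).

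**Figure D4:**
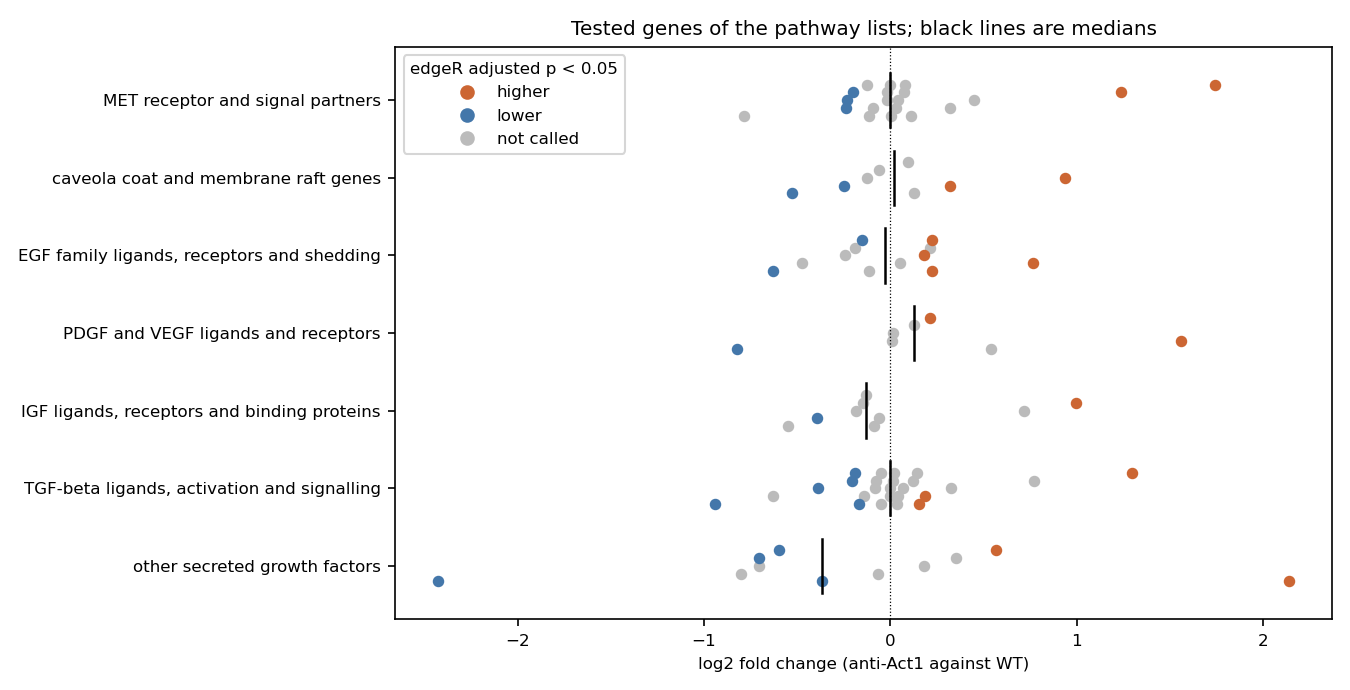
Log2 fold change of anti-Act1 against WT (horizontal axis) for the 92 tested genes of the 7 lists, 1 point a gene, coloured by whether it passed an adjusted p of 0.05 in edgeR as higher or lower. Black lines are list medians, which lie between -0.37 and 0.13. Each list held genes called higher and genes called lower.

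**Figure D5:**
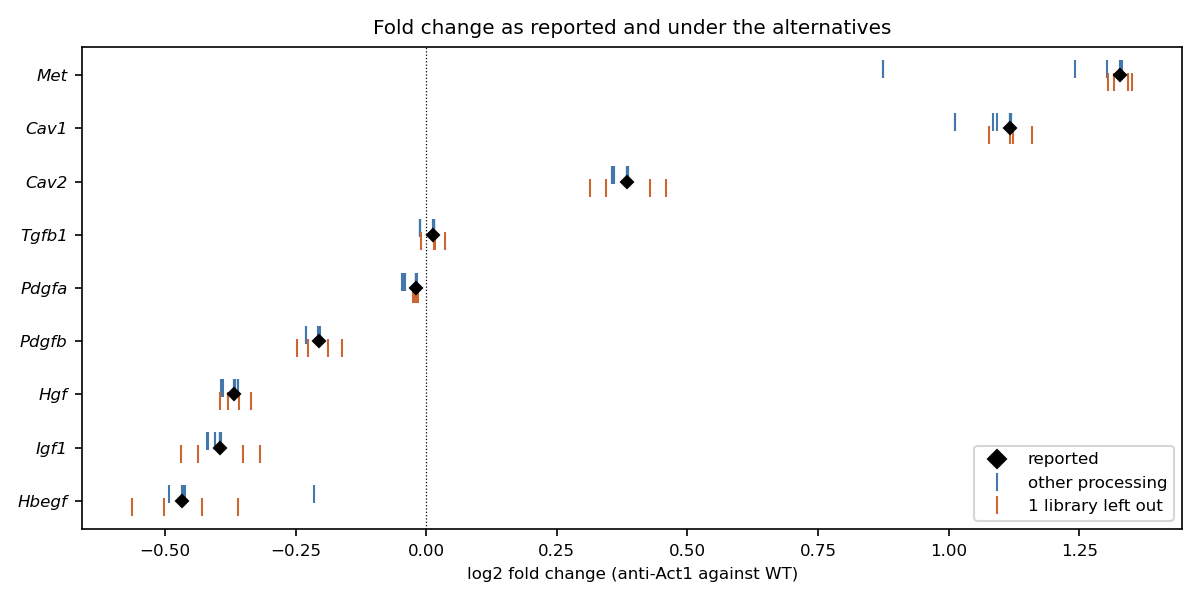
Log2 fold change (horizontal axis) of 9 genes as reported (diamonds), under other processing (blue marks) and with 1 library left out (orange marks). Met lies between 0.87 and 1.35, Cav1 between 1.01 and 1.16, Hgf between -0.39 and -0.34 and Igf1 between -0.47 and -0.32, while the marks of Tgfb1 fall on both sides of 0.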

How the data were processed

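The authors aligned 150 bp read pairs with TopHat and deposited a table of raw counts per gene, without normalization, and FPKM values, which scale the counts by gene length and library total. The submitters' processing notes list Bowtie 0.12.2, HTSeq 0.6.1 and the builds mm8 and mm10, without roles. Fold changes and p-values deposited by the authors were not used.

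The deposited counts were tested with edgeR 4.0.16 in R 4.3.3: TMM normalization, filterByExpr, condition only, the two-sided quasi-likelihood F test and Benjamini-Hochberg adjustment over 12494 genes, with standard errors from the same fit. A gene "passed" at an adjusted p under 0.05. Alternatives were DESeq2 1.42.0, its size factors, no composition normalization, no filter, a minimum of 10 counts per library, a block for replicate number, limma 3.58.1 on log2(FPKM + 1) or log2(FPKM + 0.1), with genes at 1 FPKM or all genes, and each library left out. After the data were seen, X and Y genes were left out and counts were divided by 2. The tests were checked on simulated counts.

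The 10 genes, the lists and the motifs were chosen with earlier results of these data known. Named genes were the members, receptors of the ligands, list genes with at least 1 CPM and a log2 change of 0.5, 5 neighbours a side, the 5 nearest profiles and Traf3ip2; others were chosen after their values were seen, and not each gene under this rule is reported here. The study describes 2 biological replicates per group. Totals of 55435063 to 75062945 counts put the limit for a count of 0 (3 counts) at 0.0395 to 0.0549 CPM, for counting error only. The library kit does not mark strand, and 2 gene names stood on 2 lines.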

Additional observations from a re-analysis of the deposited data

How the results depend on the processing

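Across 15 alternatives, Hgf and Igf1 stayed lower and past the threshold (adjusted p up to 0.0228 and 0.0389), and 2 or 3 growth factors were called. Unfiltered limma on log2(FPKM + 1) called 1091 genes and 22 pathway genes. Genes called numbered 1671 to 2543 with 1 library left out (1712 without anti-Act1 replicate 1, 1671 without anti-Act1 replicate 2), against 2586. Leaving out 1 library gave 23 to 34 pathway genes called and 2 to 3 growth factors. A lone library was then assumed to vary like the other group. Tgfb1 turned to -0.0118 without composition normalization, -0.0115 on either FPKM scale and -0.0102 without WT replicate 1, with 0.0364 at most when 1 library was left out. Same-numbered libraries did not deviate together (r = -0.0368 over 10892 genes), and with the replicate block 2406 genes, 31 pathway genes and the same number of growth factors, 3, were called. Unfiltered limma also lost the calls of Pdgfb (adjusted p = 0.125), Spint1 (0.0523), Nrg4 (0.0646), Nrg1 (0.0768) and Tfec (0.0770). Traf3ip2 passed without anti-Act1 replicate 2 (adjusted p = 0.0343). Log2(FPKM + 1) understates low genes, with Met at 0.87 and Inhba at 1.12. Genes near or below 1 CPM rest on few counts.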

Other observations

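4 list genes with a mean under 1 CPM also passed the test. Fgf1, the gene of an acidic fibroblast growth factor, fell from 0.467 to 0.0831 CPM (log2 fold change -2.43, SE 0.64, adjusted p = 0.00398, edgeR). Pgf, which encodes placental growth factor, a ligand of the VEGF receptor FLT1, rose from 0.379 to 1.13 CPM (1.56, SE 0.38, adjusted p = 0.00192, edgeR). Stc2, the gene of a stanniocalcin that restrains the release of IGF-1 from its binding proteins, rose from 0.599 to 1.19 CPM (1.00, SE 0.34, adjusted p = 0.0318, edgeR). The other was Spint2. All 4 were chosen after their values were seen.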
